A study of Mus musculus with 5 samples.

Results

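The TGF-β ligands Tgfb1, Tgfb2 and Tgfb3, the receptors Tgfbr1, Tgfbr2 and Tgfbr3 and the latency proteins Ltbp1, Ltbp2, Ltbp3 and Ltbp4 were followed in SLAMseq data of mouse cardiac fibroblasts (CF). These 10 of the 20365 genes in the tables were found by name, and each was represented by the 3′ interval whose CPM, averaged over the labeled libraries, was highest. CF came from healthy hearts of male C57Bl/6J wildtype mice aged 10 to 12 weeks, carried no transgene and were grown to confluency in culture. In 3 labeled libraries the cells had received 0.1 mM of the uridine analog S4U for 12 h, and in 2 unlabeled libraries they were kept in parallel without it. RNA of both groups was alkylated with iodoacetamide, so that S4U built into new RNA is read as a T>C conversion. The study's methods name 3 CF preparations, but the labels do not say which libraries share one, so p-values measure the spread between these libraries only.

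TGF-β is secreted as an inactive complex in which its own propeptide holds the ligand. Latent TGF-β binding proteins tie this complex to the extracellular matrix, from which integrins and proteases release it. Free ligand binds the type II receptor, which recruits the type I receptor and starts Smad signaling, a main route to matrix production in heart fibroblasts after injury.

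SLAMseq can read new RNA only where the counted 3′ end holds T, so the ends of the 3 ligands, among them the T-poor one of Tgfb1, and of Ltbp3 and Ltbp4, the genes with the lowest rates, are shown. The windows of 30 bases are from GRCm39, 5′ to 3′ on the strand of the gene, and capitals mark the polyadenylation signal letters AATAAA or ATTAAA nearest to the end of the interval.
Tgfb1: cctggggggcccATTAAAggtgacagagga
Tgfb2: gctctagtggtaAATAAAttatttcagtaa
Tgfb3: aatctttgtataAATAAAtatttttgggga
Ltbp3: catggtttgtacAATAAAtacatccgccgg
Ltbp4: atacaattttcaATTAAAacacctattttg
These lie at chr7:25404473-25404502 (plus strand), chr1:186354986-186355015 (minus), chr12:86103582-86103611 (minus), chr19:5808523-5808552 (plus) and chr7:27004568-27004597 (minus). The Tgfb1 window held 4 T, the Ltbp3 window 8, the Tgfb2 window 11, the Ltbp4 window 12 and the Tgfb3 window 13.

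Over its whole interval Tgfb1 had 19 T, or 11.7% of 162 bases, and only 0.403% of genes had a lower T content. The other members ranged from 24.4% in Ltbp2 to 34.5% in Tgfbr1. Either signal, searched on the sense strand, began within the last 50 bases in every member but Tgfb3, where it began 83 bases before the end, and 76.8% of the 20329 genes on reference chromosomes had one there. The pentamer ATTTA, searched on the same strand, occurred 5 times each in Tgfbr1 and Tgfbr3, 4 times in Tgfb2 and not at all in Tgfb3, Ltbp2 or Ltbp4. Of intervals of like length, within 25%, it occurred in 98.1% for Tgfbr1, 73.0% for Ltbp2 and 32.6% for Ltbp4.

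The ligand intervals were at chr7:25404342-25404503 for Tgfb1, chr1:186354984-186357778 for Tgfb2 and chr12:86103517-86104553 for Tgfb3. Those of the receptors were at chr4:47410778-47414926 for Tgfbr1, chr9:115916763-115919445 for Tgfbr2 and chr5:107254433-107257504 for Tgfbr3. Those of the latency proteins were at chr17:75697549-75699507 for Ltbp1, chr12:84829986-84831023 for Ltbp2, chr19:5808121-5808564 for Ltbp3 and chr7:27004566-27004820 for Ltbp4. The intervals of Tgfb1, Tgfb3, Tgfbr1, Tgfbr2, Ltbp2, Ltbp3 and Ltbp4 each lay inside 1 annotated 3′ UTR. A gene on the other strand overlapped Tgfb2 (Gm35546) and Tgfb3 (Ttll5), and whether counting used strand is not given in the sources used here. The annotated gene ran on past the interval by 3402 bases in Tgfbr2, 5031 in Tgfbr3, 761 in Tgfb3, 480 in Ltbp4 and 105 in Ltbp3, so ends farther out were not counted for them.

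Library depth ran from 506045 to 1843033 counted reads, and labeled replicate 3 was the shallowest. Library-wide T>C rates were 0.0353 to 0.0358 in labeled libraries and 0.00111 and 0.000652 in the unlabeled ones. All 10 fibroblast markers had reads in every library, with summed levels of 41495 to 45358 CPM in labeled and 34061 to 37366 in unlabeled libraries (counted reads of a gene scaled to the library's total over 1 interval per gene). The fibroblast sums were thus higher in every labeled library, as was Col1a1 (12755 to 13293 against 8784 and 9659), but Pdgfra (516 to 525 against 722 and 841) and Ddr2 (245 to 332 against 382 and 453) were lower in every one. Macrophage markers summed to 63.4 to 115 and endothelial markers to 115 to 238, smooth muscle and pericyte markers to 23.5 to 86.3, while cardiomyocyte markers reached at most 8.03, with Myl2 and Ryr2 at 0. All sums but those of the fibroblast markers overlapped between labeled and unlabeled libraries, and the part of these cell types in the results was not tested. In bulk RNA, fewer cells of a type and less RNA per cell cannot be told apart.

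The first comparison asked how much of each transcript carried new uridine after 12 h. Most ligand and receptor transcripts and Ltbp1 and Ltbp2 had rates near those of other genes, whereas Ltbp3 and Ltbp4 had far lower ones. The rate is the fraction of covered T positions read as C, and the reference is the 2123 genes with at least 1000 covered T in every labeled library. Their median rate was 0.0388, with quartiles of 0.0343 and 0.0423. The median over members was 0.0381 for ligands, 0.0352 for receptors and 0.0270 for latency proteins, whose members spread from 0.0117 to 0.0419.

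**Figure D1:**
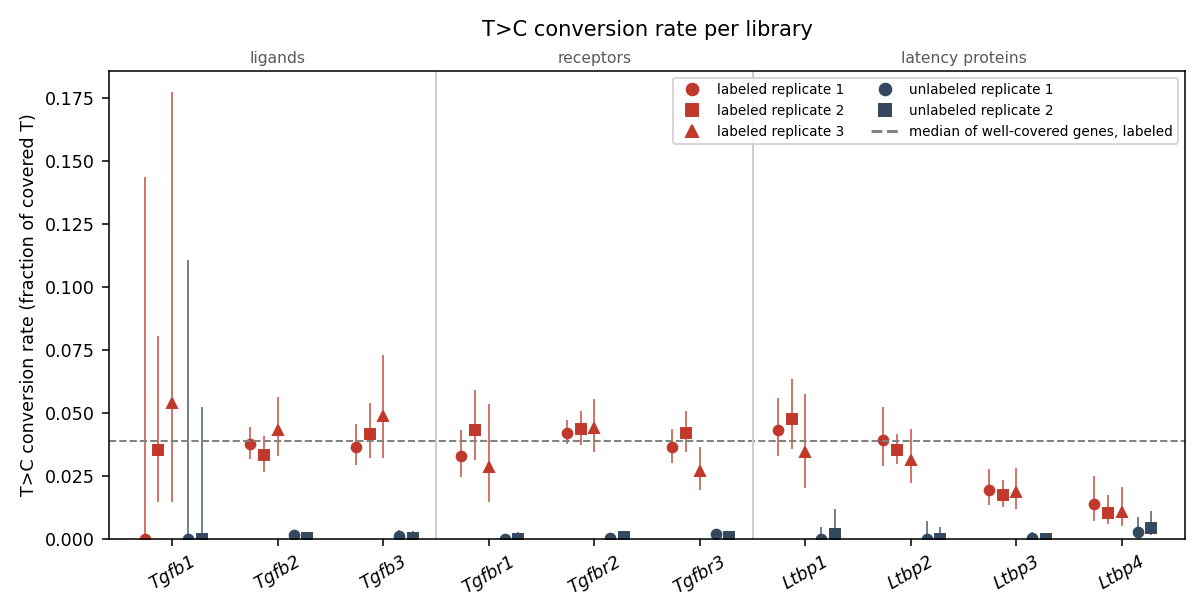
T>C conversion rate (fraction of covered T) of each gene in each library; points are libraries, bars are 95% Wilson intervals and the dashed line is the median of well-covered genes, 0.0388. The labeled rates of Ltbp3 and Ltbp4 lie below the line in all 3 libraries, and the bars of Tgfb1 are the widest of the 10 genes.

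Tgfb2, a ligand with a role in heart development, had rates of 0.0377, 0.0333 and 0.0433 in labeled replicates 1, 2 and 3. In unlabeled replicates 1 and 2 its rates were 0.00155 and 0.000252. The groups were far apart, and the mean labeled rate was 0.0381 ± 0.00500 (SD, n = 3).

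Tgfb3, the third isoform, had labeled rates of 0.0367, 0.0419 and 0.0488 and unlabeled rates of 0.00120 and 0.000505. Its mean of 0.0425 ± 0.00605 (SD, n = 3) was above that of 76.5% of well-covered genes.

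Tgfb1, the isoform most studied in fibrosis, was barely readable. It had 0, 5 and 2 conversions among 23, 141 and 37 covered T in the labeled libraries and none among 31 and 70 in the unlabeled ones. A count of 0 allows a rate of up to 0.130 in labeled replicate 1, and up to 0.0968 and 0.0429 in the unlabeled libraries. Summed over labeled libraries the rate was 0.0348, with a 95% Wilson interval from 0.0170 to 0.0701. This interval spans the rates of most well-covered genes, so the place of Tgfb1 among the members was not detectable at this depth. A Tgfb1 read covered 6.28 T on average, against 20.5 for a Tgfb2 read.

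Tgfbr2, the type II receptor that binds the ligand, had the lowest SD of its rate between labeled libraries. It was 0.0423, 0.0436 and 0.0439 in labeled and 0.000595 and 0.000838 in unlabeled libraries. The mean of 0.0433 ± 0.000852 (SD, n = 3) was above that of 81.2% of well-covered genes.

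Tgfbr1, the type I receptor kinase, had rates of 0.0330, 0.0432 and 0.0285 in labeled libraries and no conversion in the unlabeled ones, which allows up to 0.00124 and 0.00192. Tgfbr3, the co-receptor betaglycan, had 0.0365, 0.0421 and 0.0269 in labeled and 0.00212 and 0.000959 in unlabeled libraries. Both were highest in labeled replicate 2 and lowest in labeled replicate 3. Their means, 0.0349 ± 0.00756 and 0.0352 ± 0.00769 (SD, n = 3), differed by less than that spread.

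Ltbp1, which anchors latent TGF-β in the matrix, had labeled rates of 0.0433, 0.0478 and 0.0346. In the unlabeled libraries it had no conversion in replicate 1, which allows up to 0.00348, and a rate of 0.00209 in replicate 2. Ltbp2, a matrix protein that does not bind latent TGF-β itself, had 0.0392, 0.0354 and 0.0314 in labeled libraries and no conversion in unlabeled ones, which allows up to 0.00525 and 0.00337. Means were 0.0419 ± 0.00673 and 0.0353 ± 0.00391 (SD, n = 3), close to those of the receptors.

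Ltbp3, which also binds latent TGF-β and helps its secretion, had labeled rates of 0.0195, 0.0175 and 0.0187. Its unlabeled rates were 0.000458 and 0, where 0 allows up to 0.00143. The labeled libraries lay close together, and the mean of 0.0186 ± 0.00099 (SD, n = 3) was above that of only 6.83% of well-covered genes. Of its reads, 22.7% carried a conversion in labeled libraries, against 50.4% for Tgfb2.

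Ltbp4, the binding protein with a known role in elastic fibers, had the lowest mean rate of the members, with 0.0138, 0.0105 and 0.0107 in labeled libraries. In the unlabeled libraries it had 0.00281 and 0.00456, from 3 conversions of 1068 T and 5 of 1096 T. The groups did not overlap, but the unlabeled rates were above those of 90.5% and 99.2% of genes well covered there. Its labeled mean was 0.0117 ± 0.00183 (SD, n = 3), above 2.68% of well-covered genes, and 0.00799 with the unlabeled mean subtracted. With 8 conversions of 2164 T in the unlabeled libraries, the 95% Wilson interval ran from 0.00187 to 0.00728.

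Within each labeled library Ltbp1 and Ltbp2 were above Ltbp3, and Ltbp3 was above Ltbp4. Ltbp1 exceeded Ltbp3 by 0.0233 ± 0.0072 (SD of the paired differences, n = 3), a ratio of 2.26, and its mean was 3.59 times that of Ltbp4. Ltbp2 exceeded Ltbp4 by 0.0237 ± 0.0026, and Ltbp3 exceeded Ltbp4 by 0.0069 ± 0.0011. Ltbp3 and Ltbp4 kept 1 order in all 3 labeled libraries in 8 of their 9 pairs each, with Tgfb1 the exception. Of all 45 pairs 22 did so, and a two-sided exact paired permutation test over 3 libraries cannot go below 0.25.

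**Figure D2:**
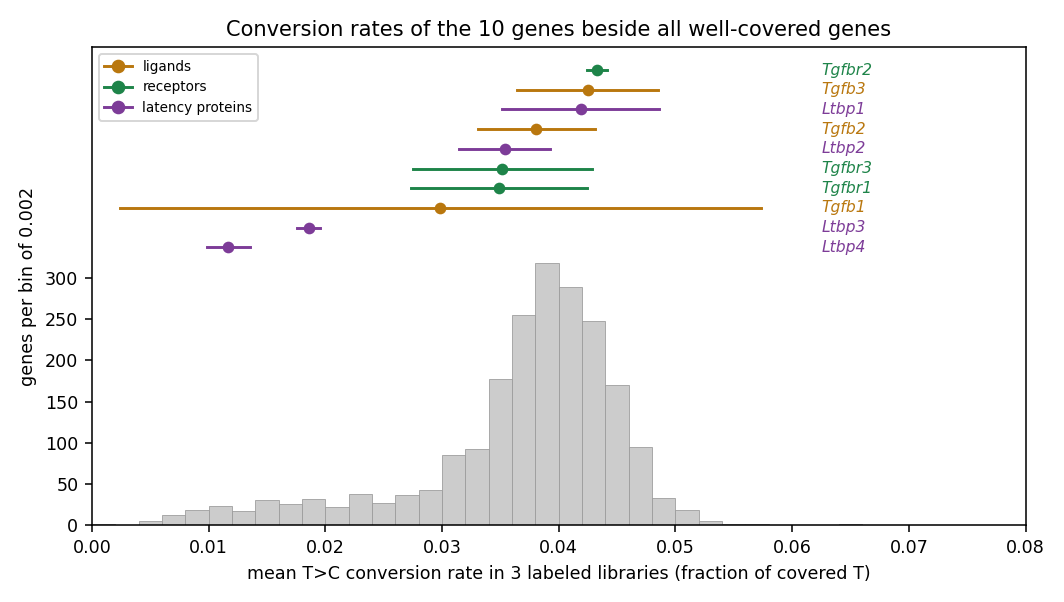
Mean T>C rate in the 3 labeled libraries (fraction of covered T) of the 10 genes, as points with SD bars, above a histogram of the 2123 well-covered genes in bins of 0.002. Ltbp3 at 0.0186 and Ltbp4 at 0.0117 sit in the lower tail, and the other genes sit within or near the main peak.

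Labeled against unlabeled rates were compared by a beta-binomial test on all intervals. It called a higher labeled rate at an unadjusted p under 0.05 for all 10 members, where 95.2% of 11179 genes and 94.6% of 19240 intervals were called. The share is thus near the background, and it says that the members were labeled as nearly all genes were. The p ranged from 8.29e-08 for Tgfbr2 to 0.00368 for Ltbp4 and 0.0178 for Tgfb1. In 9 members every labeled rate lay above both unlabeled rates, and Tgfb1 was the exception. The share of all genes for which this held is not given here, so the 9 are a description only. For Tgfb1 the beta-binomial p was 0.0842 without labeled replicate 2 and 0.153 without unlabeled replicate 2, the libraries with the most Tgfb1 reads in each group.

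By transcript level, Tgfb1 stood lowest in every library, while the gene that stood highest differed between libraries. Levels are in CPM of the counted reads, without division by length, since a 3′ library gives about 1 read per transcript. Over the 5 libraries the mean levels were 191 for Tgfbr2, 155 for Tgfb2, 124 for Tgfbr3, 96.0 for Ltbp3, 89.8 for Ltbp2, 74.7 for Tgfb3, 56.0 for Ltbp4, 51.9 for Tgfbr1, 36.9 for Ltbp1 and 9.49 for Tgfb1. Tgfb1 was below every other member in all 5 libraries. Of the 45 pairs 26 kept 1 order in all 5, but neighbours did not always, as Tgfbr2 was above Tgfb2 in 4 libraries and Ltbp2 had the highest level of the members in labeled replicate 2. Median levels were 74.7 for ligands, 124 for receptors and 72.9 for latency proteins, beside 39.7 for all genes tested. Per kb of interval the medians were 58.6, 40.2 and 151, so the order of the groups rests on that choice. The place of Tgfb1 rests on it too. Per kb its mean of 58.6 was above Tgfb2 at 55.5, Tgfbr3 at 40.2, Ltbp1 at 18.8 and Tgfbr1 at 12.5. It was below the remaining members. The group medians also pool labeled and unlabeled libraries. Summed levels of ligands were below those of latency proteins in labeled replicates 2 (191 against 432) and 3 (172 against 377). They were above them in labeled replicate 1 and in both unlabeled libraries.

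Tgfb2 made up 58.3% to 72.0% of the reads of the ligands in each library, and Tgfb1 1.11% to 9.21%. Tgfbr2 made up 45.3% to 61.3% of those of the receptors. Among latency proteins no gene led in every library, with Ltbp2 between 14.2% and 46.9% of their reads.

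**Figure D3:**
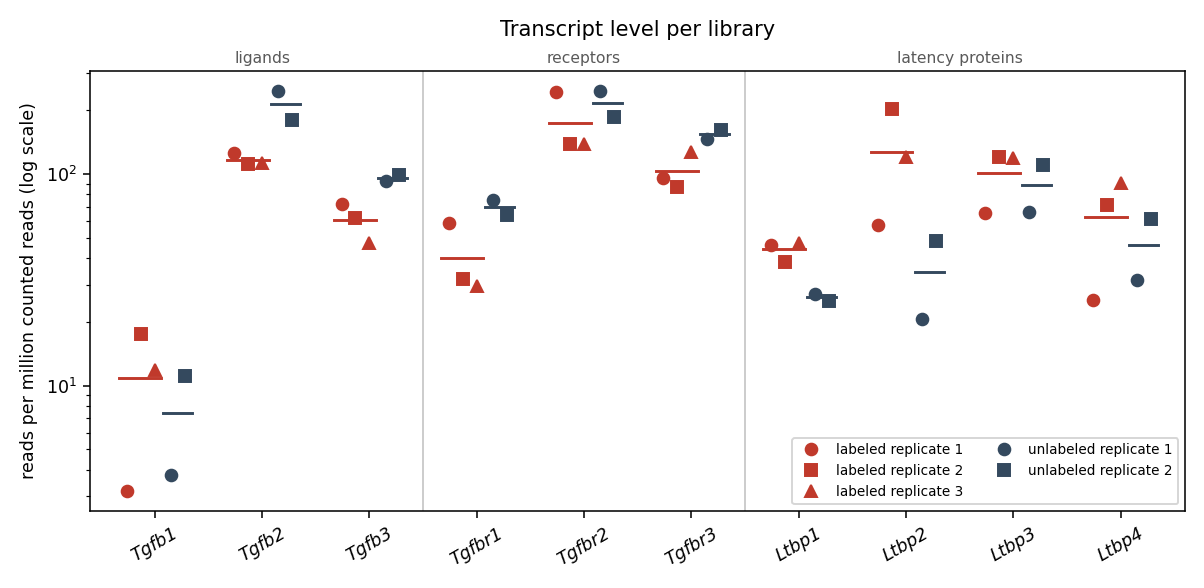
Level of each gene in each library, in CPM of the counted reads on a log axis; points are libraries and horizontal lines are group means. Tgfb1 lies lowest in all 5 libraries, the 2 unlabeled points of Tgfb2, Tgfb3, Tgfbr1 and Tgfbr3 lie above their labeled points, and those of Ltbp1 and Ltbp2 lie below.

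The next comparison asked whether read counts differed between labeled and unlabeled CF. No member passed the adjusted test when replicate numbers were ignored. With a block for replicate number, edgeR called Tgfb2 and Tgfbr3 lower and Ltbp1 and Ltbp2 higher, and 11.7% of all genes in either direction. That fit leaves 1 residual degree of freedom, and the labels do not say that a number marks a shared preparation. Tgfb2, Tgfb3, Tgfbr1 and Tgfbr3 had lower levels in every labeled library than in either unlabeled one, Ltbp1 and Ltbp2 had higher ones, and the other members overlapped. Without the block, the edgeR quasi-likelihood test with Benjamini-Hochberg adjustment called 0 of 10 members, and 0% of 9807 genes in all. At an unadjusted p under 0.05 it gave 2 members higher, where 2.84% of genes were, and 1 lower, where 3.12% were. DESeq2 also called 0 members, and 0.0976% of 14337 genes. Groups did not overlap for 2 members that were higher, where 8.2% of genes were so, and for 4 that were lower, where 13.1% were.

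Tgfb2 had levels of 125, 111 and 113 in labeled libraries and 247 and 179.7 in unlabeled ones. Every labeled library was below both unlabeled ones. The log2 fold change was -0.79 (SE 0.24), with an edgeR p of 0.0133 and an adjusted p of 0.704.

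Tgfb3 had levels of 72.3, 61.9 and 47.4 in labeled and 92.2 and 99.4 in unlabeled libraries, again with no overlap. The log2 fold change was -0.57 (SE 0.28), with an edgeR adjusted p of 0.900. Tgfb1 rested on 5, 21 and 6 labeled and 7 and 11 unlabeled reads, with levels of 3.17, 17.6 and 11.9 against 3.80 and 11.04. These overlapped, and the log2 fold change of 0.65 (SE 0.86) turned to -0.062 without labeled replicate 2 and to -0.048 without unlabeled replicate 1.

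Tgfbr1 had levels of 58.4, 31.8 and 29.6 in labeled and 75.4 and 64.2 in unlabeled libraries, so that the labeled ones were all lower. Its log2 fold change was -0.71 (SE 0.36), with an edgeR adjusted p of 0.908. For Tgfbr3 the levels were 95.8, 87.0 and 126 against 147 and 162, with a log2 fold change of -0.51 (SE 0.28) and an adjusted p of 0.955. Tgfbr2 had 244, 139 and 138 against 246 and 187. Its groups overlapped, since labeled replicate 1 was near unlabeled replicate 1, and the log2 fold change was -0.24 (SE 0.32). With a library left out, that of Tgfbr2 ran from -0.55 without labeled replicate 1 to -0.075 without unlabeled replicate 1, and that of Tgfbr1 was -1.09 without labeled replicate 1.

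Ltbp1 had levels of 46.3, 38.5 and 47.4 in labeled libraries and 27.1 and 25.1 in unlabeled ones. All labeled libraries were higher. The log2 fold change was 0.82 (SE 0.30), with an edgeR p of 0.0297 and an adjusted p of 0.767.

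Ltbp2 had levels of 57.1, 203 and 121 in labeled libraries and 20.6 and 48.2 in unlabeled ones, the highest ratio of the members at 3.68. The groups did not overlap, but labeled replicate 1 was close to unlabeled replicate 2. The log2 fold change was 1.97 (SE 0.64), with an edgeR p of 0.0181 and an adjusted p of 0.725. This log2 fold change ran from 1.42 without unlabeled replicate 1 to 2.75 without unlabeled replicate 2.

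Ltbp3 had levels of 65.4, 119.7 and 119 in labeled and 66.2 and 110.4 in unlabeled libraries, and Ltbp4 had 25.4, 71.1 and 90.9 against 31.5 and 61.2. Both overlapped, and replicate 1 was the lowest library of each group for both genes. The log2 fold changes were 0.26 (SE 0.41) for Ltbp3 and 0.49 (SE 0.60) for Ltbp4, and that of Ltbp3 turned to -0.11 without unlabeled replicate 1. That of Ltbp4 was 0.024 without unlabeled replicate 1 and 1.08 without unlabeled replicate 2.

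By role, the median log2 fold change was -0.57 for ligands, -0.51 for receptors and 0.65 for latency proteins, beside 0.018 for all genes tested. Summed ligand levels were 172 to 201 in labeled and 290.1 to 343 in unlabeled libraries, and summed receptor levels were 258 to 398 and 413 to 469. Neither sum overlapped between the groups, but the receptor sums came close, at 398 in labeled replicate 1 and 413 in unlabeled replicate 2. Tgfbr2, the largest part of the receptor sums, overlapped by itself. No share over all genes is given for such sums. Summed latency protein levels of 194 to 432 and 145 to 245 did overlap.

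**Figure D4:**
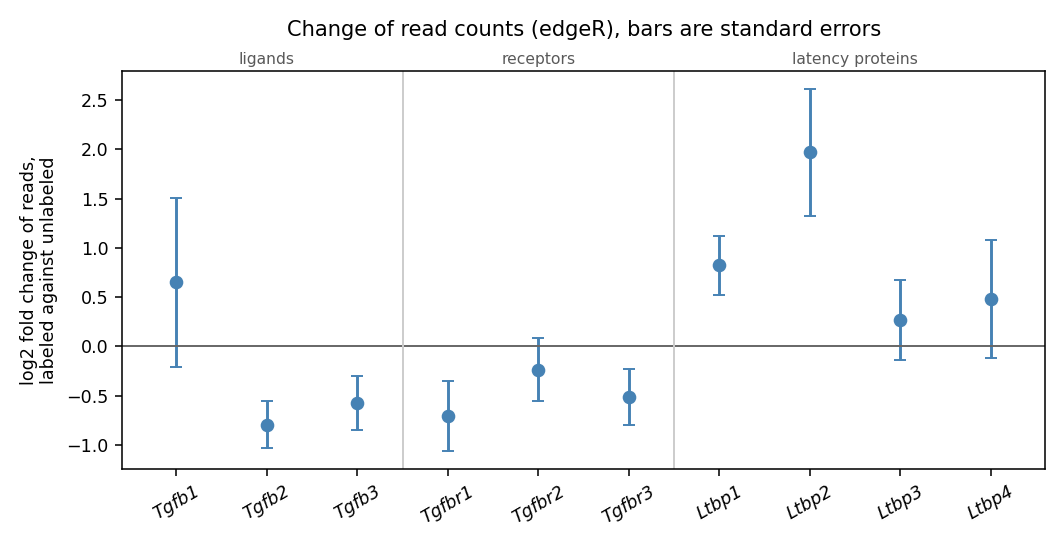
Log2 fold change of read counts, labeled against unlabeled, from the edgeR fit, with bars for standard errors. Ltbp2 at 1.97 and Ltbp1 at 0.82 are the highest of the 10 genes and Tgfb2 at -0.79 is the lowest. None passed the adjusted test in this fit, which has no replicate block.

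The other genes of the pathway were taken as 4 lists of 60 genes in all, of which 56 were tested for reads. The lists were chosen with earlier results of these data known, so their counts are a description. With edgeR 0 passed the adjusted test without the replicate block, and 23 passed with it. Without the block, at an unadjusted p under 0.05, there were 14 higher and 2 lower, where 2.84% and 3.12% of all genes were. The T>C rate was raised in 57 of the 58 tested, near the 95.2% of all genes.

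Among activators and matrix anchors, which free or hold the latent complex, 16 were tested for reads, of which 1 was higher and 2 were lower by the unadjusted p, and the median was a log2 fold change of 0.14. Among the well-covered genes of this list, Thbs1, an activator of latent TGF-β, had the highest rate at 0.0540 ± 0.0022 (SD, n = 3). Fn1, the fibronectin to which latency proteins bind, had the lowest of them at 0.0154 ± 0.00152 (SD, n = 3). Co-receptors, decoys and inhibitors had 3 of 11 higher at an unadjusted p and a median of 0.37. Fst, which traps activins, had 0.0457 ± 0.00235 and Bgn, a matrix proteoglycan, 0.00976 ± 0.000372 (SD, n = 3).

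The Smad cascade had 1 of 12 higher at an unadjusted p and a median log2 fold change of 0.21. Among its well-covered genes, rates ran from 0.0365 ± 0.00479 in the repressor Ski to 0.0449 ± 0.00415 in the ubiquitin ligase Smurf2 (SD, n = 3). Known TGF-β target genes had log2 fold changes above 0 in 17 of 17, where 51.7% of all genes tested had, with a median of 0.68 and a range of 0.14 to 2.34. At an unadjusted p 9 were higher, where 2.84% of all genes were, and 0 lower. Groups did not overlap, with the labeled libraries higher, for 11, where 8.2% of all genes were so. This list too was chosen with earlier results of these data known, and its genes are not replicates. Its counts therefore describe the list and do not test it. Among the well-covered target genes Tagln, an actin-binding protein of contractile cells, had the highest rate at 0.0646 ± 0.0140 (SD, n = 3). The collagen gene Col3a1 had the lowest of them at 0.0151 ± 0.00143 (SD, n = 3). Target genes thus had a median read change above 0 in the same libraries in which those of the ligands and receptors were below 0, and this was not tested.

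**Figure D5:**
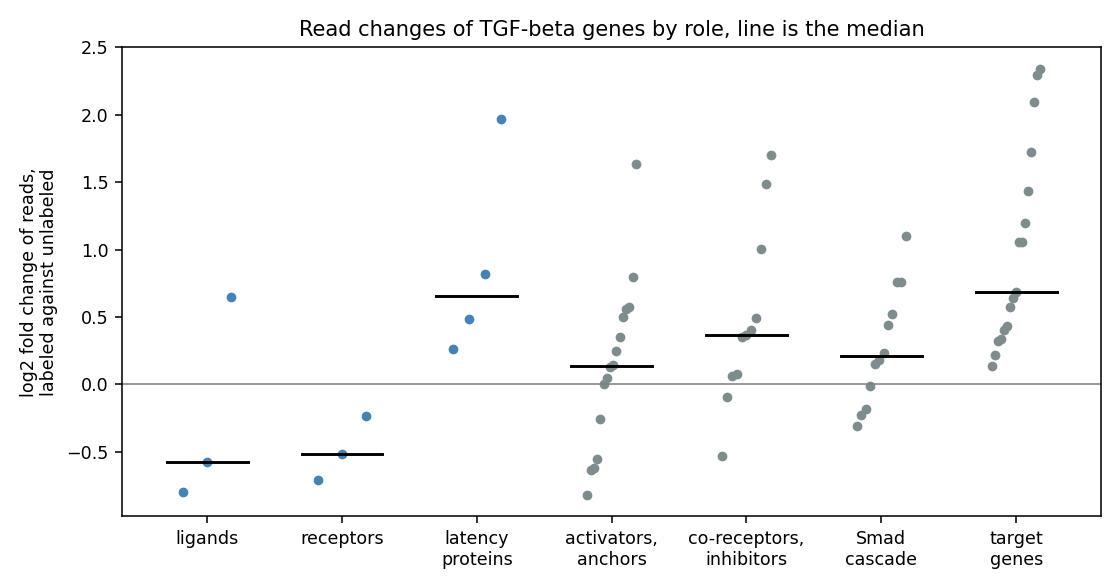
Log2 fold change of reads, labeled against unlabeled, for the 10 genes by role (blue) and for the tested genes of 4 pathway lists (gray), with lines at the medians. Medians are -0.57 for ligands, -0.51 for receptors, 0.65 for latency proteins, 0.14 for activators and anchors, 0.37 for co-receptors and inhibitors, 0.21 for the Smad cascade and 0.68 for target genes.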

How the data were processed

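Per the labels and the study's methods, 3′ libraries (QuantSeq FWD with molecular identifiers) were made from alkylated RNA. The submitters' processing notes name SLAM-DUNK 0.4.3, UMI-tools and mm39. The origin of the 3′ intervals is not given in the sources used here. The authors deposited, per interval and library, counts of reads, of reads with a T>C conversion, of covered T and of conversions, with no normalization. Their deposited rate is the fraction of covered T with a conversion. The deposited CPM divides reads by a library number that exceeds the counted reads, so levels were recomputed from counts. T content matched GRCm39 in 40380 of 40380 intervals on reference chromosomes.

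Samples were grouped by their labels. A two-sided beta-binomial likelihood-ratio test with 1 overdispersion per interval, read against chi-square on 1 df, was applied to T>C rates wherever each library covered 1 T or more, and calls were made at p under 0.05. For reads, with 1 interval taken for each gene, the test was that of edgeR 4.0.16 (TMM, filterByExpr, quasi-likelihood, Benjamini-Hochberg), and DESeq2 1.42.0, limma 3.58.1 on log odds, other filters and scalings, a replicate block and leaving out each library were alternatives. Software was Python 3.11.15 with scipy 1.17.1, numpy 2.4.6, matplotlib 3.10.9, numba 0.67.0 and pandas 2.3.3, and R 4.3.3. The tests were tried on simulated data. Some overlaps with other genes are not reported here.

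Members of the pathway lists were named where they had the highest or lowest labeled rate among genes with at least 1000 covered T in every labeled library. The members, lists and tests were chosen with earlier results of these data known. Covered T on all intervals ranged from 15282090 to 53609626 per library. Read counts of libraries within a group varied beyond sampling noise, with chi-square over df of 2.04 to 16.6. A limit given for 0 conversions is 3 conversions over the covered T, and limits and 95% intervals cover counting error only. Exact permutation of 3 against 2 libraries cannot give a one-sided p below 0.1.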

Additional observations from a re-analysis of the deposited data

How the results depend on the processing

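Of the 10 members, 8 kept the direction of their read change under every alternative. The exceptions were Tgfb1, with log2 fold changes of -0.062 without labeled replicate 2 and -0.048 without unlabeled replicate 1, and Ltbp3, with -0.11 without unlabeled replicate 1. With each library left out in turn, values ran from -0.062 to 1.58 for Tgfb1 and from -0.11 to 0.73 for Ltbp3. With edgeR or DESeq2 scaling, without the filter, with summed intervals or without any library, 0 members passed the adjusted test. The count of members with a raised rate was 9 or 10 with each library left out, and 4 where every library had to cover 1000 T or more, a setting in which fewer members could be tested. The shares of all genes called in these settings are not given here, and in the main fit the share was 95.2%. By deposited CPM the median levels were 7.44 for ligands, 11.6 for receptors and 5.80 for latency proteins, and per kb of interval 40.2 for receptors and 151 for latency proteins. DESeq2 called 5 pathway list genes, among them Thbs1, Tagln, Tnc and Timp1.

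The replicate numbers are not said to mark shared preparations, and labeled replicate 3 has no partner. Deviations correlated at 0.784 for replicates numbered 1 and 0.638 for those numbered 2, with labeled replicate 3 at 0.482 with unlabeled replicate 2. With only 2 unlabeled libraries each value against the other has the opposite sign. With the replicate block, which leaves 1 residual degree of freedom in place of 3, edgeR called 4 members and 23 pathway list genes, beside 528 genes higher and 618 lower of 9807 (11.7% in either direction). The members were Tgfb2 at -0.80 (adjusted p 6.13e-05), Tgfbr3 at -0.69 (0.0019), Ltbp1 at 0.77 (0.0301) and Ltbp2 at 1.86 (2.99e-15). With the block, limma on the log odds called a raised rate in 9 members, Tgfb1 being the exception. Its share over all genes is not given here.

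Depth limits Tgfb1 most, since 5 to 21 reads per library covered 23 to 141 T.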

Other observations

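Other intervals of the members added few reads. Of the 3 nested Ltbp1 intervals, the shortest held 59, 40 and 22 reads in labeled and 39 and 22 in unlabeled libraries, and the next held 72, 46 and 23 against 50 and 25. The interval used held 73, 46 and 24 against 50 and 25. Its rates on the shortest interval were 0.0437, 0.0450 and 0.0324 in labeled libraries.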
